A study of Mus musculus with 18 samples.

Results

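The Bcl2 family loci described here are the listed accessible regions that name 10 genes of the family in the mouse genome, 4 that keep cells alive (Bcl2, Bcl2l1, Mcl1 and Bcl2a1b) and 6 that promote cell death (Bcl2l11, Bax, Bak1, Bad, Bbc3 and Pmaip1). A region was counted for a gene when the deposited annotation placed it over the gene or its promoter, or listed the gene as a neighbour within 5000 bp to the left or right. This gave 68 of the 65983 regions of the table, 52 at the pro-survival and 16 at the pro-death genes, and each of the 68 named only 1 of the 10 genes. Open chromatin was mapped by ATAC-seq, where a transposase inserts adapters into DNA that is not packed away. The cells were mouse CD4 T cells, started from naive cells with beads carrying antibodies to CD3 and CD28 and cultured under Th1 polarisation with IL2, IL12 and an antibody against IL4. The 18 samples form 6 groups of 3, namely Id3-KO and WT Th1 at 24 h, Id3-KO and WT Tcmp at 72 h, and Id3-KO and WT Teff at 72 h. KO stands for the knockout of Id3, an inhibitor of the E protein transcription factors, and WT for wild type. The labels do not spell out Tcmp and Teff, and do not give the mouse strain, the age or the way Id3 was deleted.

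Proteins of the Bcl2 family decide whether the outer membrane of mitochondria stays intact. Bax and Bak, the product of Bak1, open that membrane and release cytochrome c, which starts the caspase cascade. Bcl2, Bcl-xL (from Bcl2l1), Mcl1 and A1 (from the Bcl2a1 genes) hold them in check, and the BH3-only proteins Bim (Bcl2l11), Bad, Puma (Bbc3) and Noxa (Pmaip1) bind and neutralise these inhibitors. In T cells, Bcl2 and Mcl1 maintain resting cells, Bcl2l1 and Bcl2a1 are induced after activation, and Bim removes activated cells when a response ends.

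The table holds 1 set of regions for the whole series and no value for a single sample. Region number, class, width and number of windows therefore describe the series as a whole, cannot be compared between Id3-KO and WT, and have no replicate error. No test was made between the 4 and the 6 genes, because genes are not replicates and the members were chosen with results of these data known. Library depth is unknown from the table. Regions covered all 6 T cell markers examined (Cd3e, Cd3g, Cd4, Cd28, Lck and Tcf7) and all 4 Th1 markers (Tbx21, Ifng, Il12rb2 and Stat4), although none of the 6 regions at Tbx21 had the promoter class. They covered 1 of 4 myeloid markers (Itgam) and 1 of 2 NK markers (Klrb1c). An accessible region does not show that its gene is expressed.

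Promoter sequences are shown first, because the promoter was the element that every member had among its regions. RefSeq promoters, 250 bases before to 50 bases after an annotated transcript start, were found for 9 of the 10 members, with 15 starts in all. None was found for Pmaip1, so the promoter values of the pro-death genes leave it out. They come from the GRCm38.p6 assembly, whereas the regions are in GRCm39, so the letters could not be placed within the regions. In the 5 sequences that follow, capitals mark the E-box, CANNTG, the core bound by basic helix-loop-helix factors such as the E proteins that Id3 inhibits. Bcl2 (chr1:106714241-106714540, minus strand) is shown because it held the most regions and has no E-box in this window. Mcl1 (chr3:95658471-95658770, plus strand) is shown as a pro-survival promoter with an E-box, and the first start of Bcl2l11 (chr2:128125788-128126087, plus strand) as the member promoter with the form CAGCTG. The first start of Bad (chr19:6941611-6941910, plus strand) and the second of Bbc3 (chr7:16310011-16310310, plus strand) are shown for the form CAGGTG, which reads CACCTG on the other strand.
Bcl2: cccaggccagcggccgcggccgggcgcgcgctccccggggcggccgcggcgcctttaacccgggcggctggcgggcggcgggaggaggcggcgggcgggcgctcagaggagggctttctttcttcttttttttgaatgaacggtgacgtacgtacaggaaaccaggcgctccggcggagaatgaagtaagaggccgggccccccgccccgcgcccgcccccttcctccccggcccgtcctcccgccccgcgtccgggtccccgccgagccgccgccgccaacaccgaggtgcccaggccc
Mcl1: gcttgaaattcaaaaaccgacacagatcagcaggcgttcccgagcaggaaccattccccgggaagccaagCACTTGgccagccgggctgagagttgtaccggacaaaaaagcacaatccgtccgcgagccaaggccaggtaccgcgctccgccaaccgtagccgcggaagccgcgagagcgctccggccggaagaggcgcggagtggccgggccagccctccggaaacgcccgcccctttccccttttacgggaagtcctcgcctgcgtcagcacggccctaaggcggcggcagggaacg
Bcl2l11: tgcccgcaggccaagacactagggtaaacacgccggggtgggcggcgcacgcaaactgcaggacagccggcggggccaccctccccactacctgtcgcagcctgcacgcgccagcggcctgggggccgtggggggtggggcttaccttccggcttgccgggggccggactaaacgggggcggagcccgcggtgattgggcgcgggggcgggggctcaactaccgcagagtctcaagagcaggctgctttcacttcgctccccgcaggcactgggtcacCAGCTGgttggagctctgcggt
Bad: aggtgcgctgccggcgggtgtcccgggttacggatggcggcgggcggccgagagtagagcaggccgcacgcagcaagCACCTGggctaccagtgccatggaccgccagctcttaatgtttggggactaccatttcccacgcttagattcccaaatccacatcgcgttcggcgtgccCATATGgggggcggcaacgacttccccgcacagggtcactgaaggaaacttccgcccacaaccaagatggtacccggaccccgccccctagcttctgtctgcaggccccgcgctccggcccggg
Bbc3: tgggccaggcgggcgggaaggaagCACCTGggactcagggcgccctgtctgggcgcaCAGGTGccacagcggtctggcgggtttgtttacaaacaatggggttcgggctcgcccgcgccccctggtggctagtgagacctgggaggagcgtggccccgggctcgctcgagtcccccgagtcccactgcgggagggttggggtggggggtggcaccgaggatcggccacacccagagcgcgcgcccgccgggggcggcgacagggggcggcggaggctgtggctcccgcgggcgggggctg

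Bcl2a1b belongs to a group of near-identical gene copies on chromosome 9, and the promoters of 3 copies are shown to make this visible. They are Bcl2a1b (chr9:89199023-89199322, plus strand), Bcl2a1a (chr9:88956670-88956969, plus strand) and Bcl2a1d (chr9:88731801-88732100, minus strand), all GRCm38.p6. Capitals mark the longest run that the 3 share, 84 bases.
Bcl2a1b: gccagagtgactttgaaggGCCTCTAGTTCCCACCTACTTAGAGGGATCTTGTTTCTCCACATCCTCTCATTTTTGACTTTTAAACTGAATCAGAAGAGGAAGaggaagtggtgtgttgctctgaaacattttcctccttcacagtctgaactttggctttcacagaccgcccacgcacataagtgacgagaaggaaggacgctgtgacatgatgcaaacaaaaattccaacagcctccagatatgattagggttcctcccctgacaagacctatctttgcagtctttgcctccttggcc
Bcl2a1a: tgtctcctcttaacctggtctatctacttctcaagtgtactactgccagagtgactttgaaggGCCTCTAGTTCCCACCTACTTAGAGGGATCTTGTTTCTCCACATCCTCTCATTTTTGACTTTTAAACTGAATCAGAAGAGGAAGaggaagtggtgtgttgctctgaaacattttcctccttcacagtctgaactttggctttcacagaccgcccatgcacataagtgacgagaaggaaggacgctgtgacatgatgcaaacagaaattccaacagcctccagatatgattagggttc
Bcl2a1d: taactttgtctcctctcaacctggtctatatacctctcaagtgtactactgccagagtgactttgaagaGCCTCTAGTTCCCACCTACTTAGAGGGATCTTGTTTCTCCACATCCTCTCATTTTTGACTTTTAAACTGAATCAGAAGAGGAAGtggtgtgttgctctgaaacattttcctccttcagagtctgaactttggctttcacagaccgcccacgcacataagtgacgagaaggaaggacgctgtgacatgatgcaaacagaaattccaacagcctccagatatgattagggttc

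The pro-survival genes had more listed regions than the pro-death genes, and 30 of their 52 regions lay in introns of Bcl2 and 6 in introns of Bcl2l1. Bcl2 was named by 33 regions, Bcl2l1 by 10, Bcl2a1b by 6 and Mcl1 by 3. Among the pro-death genes Bak1 was named by 5, Bcl2l11 by 4, Bax by 3, Pmaip1 by 2, and Bad and Bbc3 by 1 each. The median was 8 regions per pro-survival gene (range 3 to 33) and 2.5 per pro-death gene (range 1 to 5). The ranges overlapped, since Mcl1 had fewer regions than Bak1 and Bcl2l11. Over the 20321 genes of the table that had a region of the promoter class the median was 2, with quartiles of 1 and 4.

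**Figure D1:**
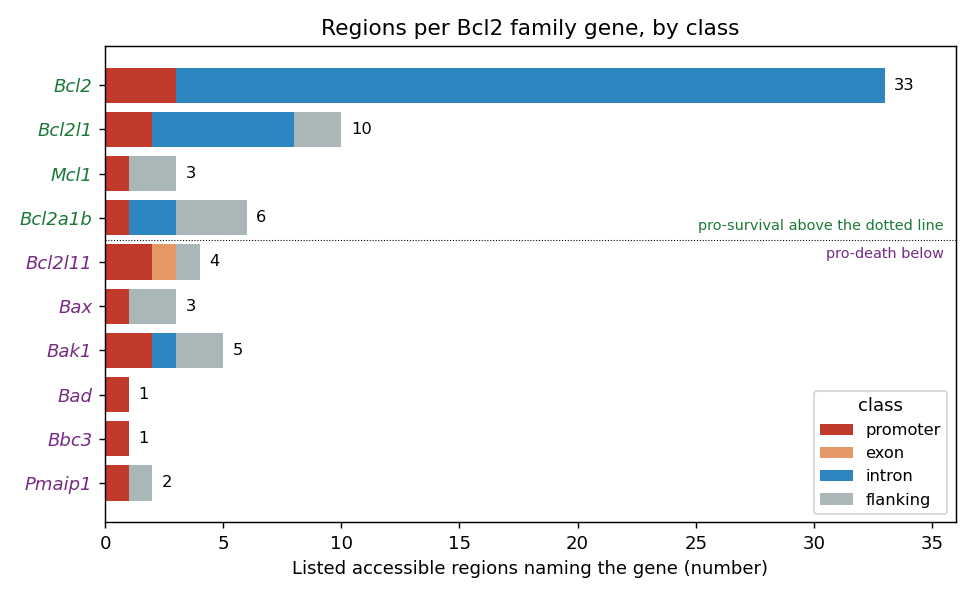
Bars give the number of listed regions that name each of the 10 genes (x axis), stacked by class, with pro-survival genes above the dotted line and pro-death genes below it. Bcl2 reaches 33 regions, 30 of them in introns, while no pro-death gene has more than 5.

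Class letters were read as promoter (P), exon (E) and intron (I), with promoter taking precedence and flanking used where a gene was named only as a neighbour. Regions given the letter P alone lay at most 3000 bp from the exon downstream of them. At the pro-survival genes 38 of 52 regions (73.1%) were intronic, 7 (13.5%) were at promoters and 7 were flanking. At the pro-death genes 8 of 16 (50.0%) were at promoters, 6 (37.5%) were flanking, 1 was exonic and 1 intronic. Over all genes with a promoter region, and classed in the same way for each named gene, 43.0% of the pairs of gene and region were at promoters, 33.8% were intronic and 16.7% were flanking. At the 3 pro-survival genes other than Bcl2, 8 of 19 regions (42.1%) were intronic and 4 (21.1%) were at promoters.

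Without the intronic regions the median was 3.5 regions per pro-survival gene (range 3 to 4) and 2.5 per pro-death gene (range 1 to 4). Counting only regions that overlap the gene gave medians of 5.5 and 1. With the other family genes added, the medians were 3 and 2. The annotated length of the genes in GRCm39 was not used here, so the contribution of long introns to these counts was not tested.

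**Figure D2:**
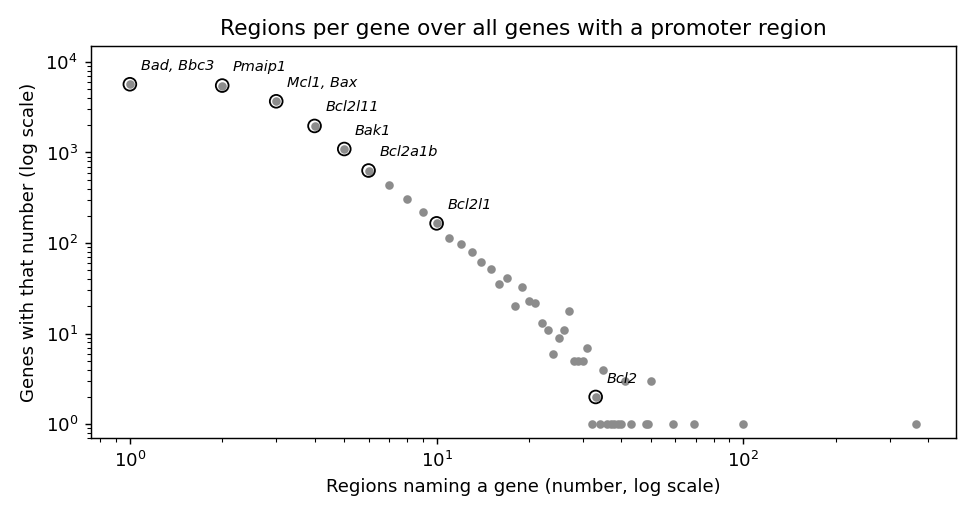
Each grey point gives how many of the 20321 genes with a promoter region (y axis, log scale) were named by a given number of regions (x axis, log scale), and circles mark the numbers found at the 10 family genes. Bcl2 lies at the upper end, with 25 genes at 33 or more regions, while 6 of the family genes have 4 regions or fewer.

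Bcl2, the inhibitor that gave the family its name, was named by more regions than nearly all other genes. Only 25 of 20321 genes (0.123%), Bcl2 included, had 33 or more, and 20 genes, again with Bcl2, had 30 or more intronic regions. The regions covered 10.4% of the 173 kb from the first to the last (chr1:106472451-106645400, GRCm39). They included 3 at the promoter, of which 2 also covered an exon (chr1:106639851-106640500 and chr1:106641651-106642350), and 1 further upstream (chr1:106644851-106645400). The upstream region was 550 bp wide and lay 2847 bp from the first exon, and 2789 bp from the neighbouring gene Kdsr, which was listed only as a neighbour.

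The 30 intronic regions of Bcl2 lay from 6.90 to 169 kb downstream of the more upstream of the promoter regions that cover an exon. There were 6 within 50 kb, 9 between 50 and 100 kb, 11 between 100 and 150 kb and 4 beyond 150 kb. Gaps between neighbouring regions at the locus had a median of 3.95 kb, from 1.15 to 12.4 kb. The intronic regions had a median width of 550 bp and a median of 6 windows, 12 were 600 bp or wider and 4 were 400 bp or narrower. The widest were 700 bp with 9 windows each, at chr1:106534501-106535200 and chr1:106574901-106575600, and the narrowest were 3 regions of 350 bp with 2 windows. Other annotated genes overlapped 7 of the 30, of which 6 lay within a gene on the opposite strand (ENSMUSG00000054006), 1 of these also at the promoter of the microRNA gene Mir3473f. The last of the 7 held the promoter and an exon of ENSMUSG00000103348, on the same strand.

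**Figure D3:**
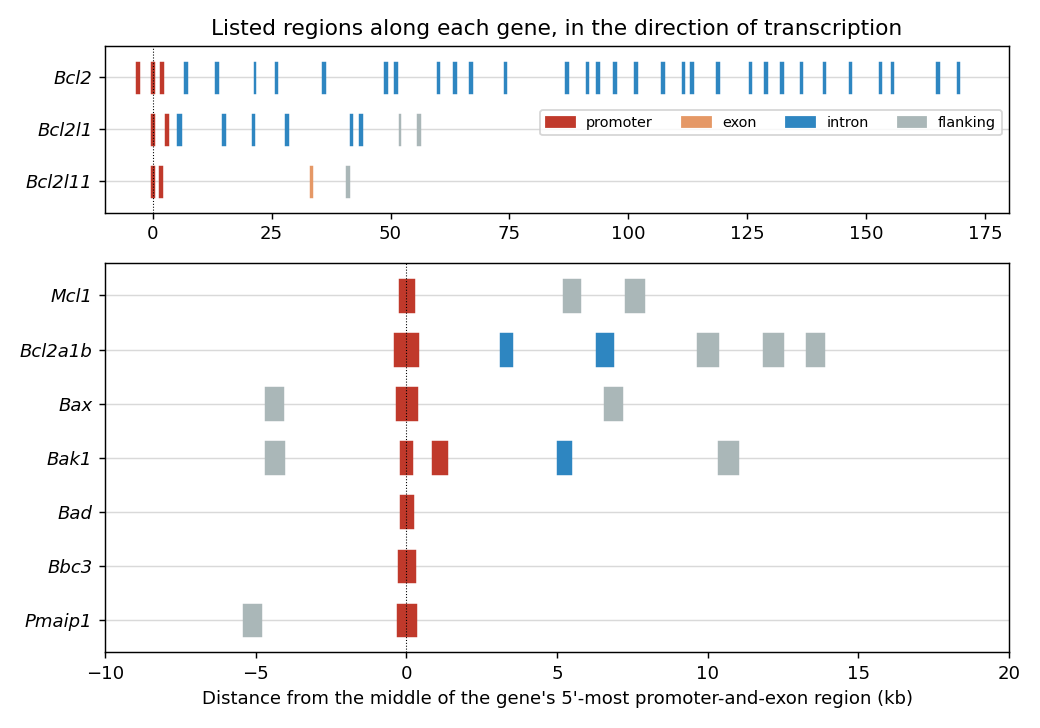
Listed regions are drawn to scale along the direction of transcription (x axis, kb from the middle of the 5′-most region that covers promoter and exon, different scales in the upper and lower panel), coloured by class. Bcl2 has intronic regions out to 169 kb and Bcl2l1 out to 43.7 kb, whereas Bad and Bbc3 have their promoter region only.

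Bcl2l1, which encodes Bcl-xL, had 10 regions, a number that 4.23% of genes with a promoter region reached. Its 2 promoter regions (chr2:152673101-152673600 and chr2:152670151-152670700) were 500 and 550 bp wide, and both covered an exon. The 6 intronic regions lay 5.50, 14.9, 21.1, 28.1, 41.7 and 43.7 kb from the first of these, and were 550 to 700 bp wide with 6 to 9 windows. They were thus no narrower than the promoter region nearest to them. The 2 flanking regions lay 938 and 4788 bp beyond the exon at the other end of the gene. The nearer one, 350 bp with 2 windows, was the narrowest of the locus.

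Mcl1, a short-lived inhibitor that T cells need at most stages, had 3 regions, of which 1 overlapped the gene. This promoter region (chr3:95565801-95566300) was 500 bp wide with 5 windows and covered an exon. The other 2 lay 764 and 2814 bp past the last exon and were wider, 550 and 650 bp. Mcl1 had no intronic region.

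Bcl2a1b had 6 regions, and its promoter region (chr9:89080751-89081550) was the widest of all 68, 800 bp with 11 windows. The 2 intronic regions were 400 and 550 bp wide. The 3 flanking regions, 921, 3121 and 4521 bp past the gene, were also assigned to the promoter of Mthfs, and all 6 lay within a longer annotated gene, ENSMUSG00000100838. None of the 6 regions can be tied to Bcl2a1b alone.

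The copy Bcl2a1d showed a like layout. It had 5 regions, a promoter region of 700 bp with 9 windows (chr9:88613701-88614400), an intronic region of 300 bp with 1 window, and flanking regions at 938, 3238 and 4638 bp, which lay over the Mthfsl gene. Bcl2a1c had 1 region, at its promoter (500 bp, 5 windows), and Bcl2a1a was named by none. In the RefSeq promoters Bcl2a1b matched Bcl2a1a at 254 of 256 aligned bases (99.2%), Bcl2a1d at 96.5% and Bcl2a1c at 95.7% of aligned columns. The treatment of reads that match several copies is not stated, so the split of regions among the copies is uncertain.

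Among the pro-death genes the membrane-opening effectors shared their regions with other genes throughout. Bak1 had 5 regions, and all 5 also overlapped Ggnbp1 and ENSMUSG00000117819, both on the opposite strand. Its promoter regions (chr17:27247451-27247850 and chr17:27246301-27246800) were 400 and 500 bp wide with 3 and 5 windows, and the intronic one was 450 bp with 4 windows. The 2 flanking regions, 650 bp and 8 windows each, had the promoter class for Ggnbp1.

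Bax had 1 region on the gene, at the promoter and an exon (chr7:45115801-45116500), 700 bp wide with 9 windows, the widest at a pro-death gene. The other 2 were flanking, 1521 and 3929 bp away, and were 600 bp wide. They overlapped Ftl1, which encodes the ferritin light chain, and Dhdh in turn. Neither overlapped Bax, which is listed for them as a neighbour only.

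The 4 BH3-only genes had 8 regions together, 5 of them at promoters. Bcl2l11, the gene of Bim, had 4, of which 2 at promoters lay 1.57 kb apart from middle to middle (chr2:127967551-127968200 and chr2:127969151-127969750) and were 650 and 600 bp wide. Another covered an exon 33.3 kb downstream (chr2:128000901-128001400, 500 bp), and the fourth was flanking, 4134 bp past the gene and 450 bp wide. Unlike Bcl2 and Bcl2l1, Bcl2l11 had no listed region in an intron, although its regions spanned 41.5 kb.

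Bad, Bbc3 and Pmaip1 each had a lone region on the gene. Bad, whose product is held inactive by phosphorylation downstream of growth factor signals, had 1 region of 450 bp with 4 windows (chr19:6919651-6920100), shared with the promoter of Gpr137 on the opposite strand. Bbc3, a p53 target gene, had 1 region of 550 bp with 6 windows (chr7:16047701-16048250), which overlapped no other gene. Pmaip1 had a promoter region of 650 bp with 8 windows (chr18:66591301-66591950) and a flanking one 4804 bp upstream (600 bp). The flanking regions of Pmaip1 and Bcl2l1 at 4804 and 4788 bp were the members closest to the 5000 bp limit. Just outside it, the next listed regions lay a further 900 bp from the last region of Bcl2l11 and 2200 bp from that of Mcl1.

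A larger share of the pro-death regions than of the pro-survival regions also lay over another gene. Another gene overlapped 9 of the 16 (56.2%), 7 of them on the opposite strand, and 14 of the 52 pro-survival regions (26.9%), 6 on the opposite strand. Over all 53570 regions that name a gene a share of 30.5% was counted by a wider rule. It also takes in regions that overlap a gene and only neighbour another, whichever gene is viewed. The member counts take these in only where the member is the neighbour, so the shares are not directly comparable. The 9 regions came from Bak1, Bax and Bad only, and the 14 from Bcl2, Bcl2a1b and Bcl2l1. When regions that overlap another gene were left out, the median was 6 regions per pro-survival gene and 0.5 per pro-death gene.

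The median widths of the roles were 50 bp apart. The median was 550 bp at pro-survival genes (range 350 to 800) and 600 bp at pro-death genes (range 400 to 700), against 550 bp with quartiles of 500 and 650 bp over all regions. The number of windows had medians of 6 and 7 against 6. It carried no information beyond width at these loci, because all 68 regions were 250 bp plus 50 bp a window wide, as were 97.8% of all regions. At promoters alone the medians were 550 bp for 7 pro-survival and 575 bp for 8 pro-death regions, both under the 600 bp of all promoter regions. The 38 intronic regions of the pro-survival genes had the same median, 550 bp, and the same quartiles, 500 and 600 bp, as all intronic regions of the table.

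**Figure D4:**
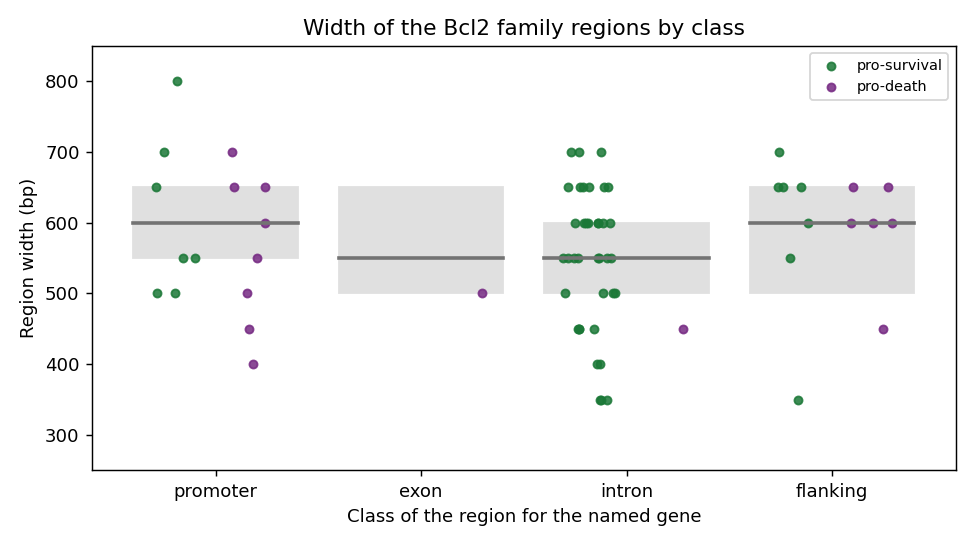
Points give the width in bp (y axis) of each of the 68 regions by its class for the named gene (x axis), with grey boxes for the quartiles and bars for the median over all regions of that class. Promoter regions run from 400 bp at Bak1 to 800 bp at Bcl2a1b, and points of both roles overlap in the promoter and flanking classes.

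The base composition of the promoters varied within both roles. GC content was 76.0% at Bcl2 and 65.7% at Mcl1, but 46.7% at Bcl2a1b and 49.3 to 55.7% at the 3 starts of Bcl2l1. At the 5 pro-death genes with a RefSeq promoter it ran from 57.3% at Bax and 58.3% at Bak1 to 78.0% at the third start of Bbc3. The medians were 54.0% over 6 pro-survival starts, 71.0% over 9 pro-death starts and 52.7% over all 32851 RefSeq promoters. Starts of a gene are not independent, and windows of Bbc3 overlap. The ratio of observed to expected CpG was 1.02 at Bcl2 and at Mcl1 and 0.247 at Bcl2a1b, beside a median of 0.384 over all promoters. Its median was 0.815 over the pro-survival starts (range 0.0558 to 1.07) and 0.771 over the pro-death starts (range 0.435 to 0.940). The pro-death median was thus the higher for GC content but not for this ratio.

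The share of promoters with an E-box was no higher in the family than over all promoters. A match to CANNTG was found in 4 of 6 pro-survival and 6 of 9 pro-death promoters (66.7% each), and in 72.3% of all promoters. Starts of a gene were counted separately. The pro-survival matches were at Mcl1 and every start of Bcl2l1, with none at Bcl2 or Bcl2a1b. Among the pro-death genes only Bak1 had none at any start, so the equal shares hold for starts, not for genes. The E protein form CAGGTG, searched on both strands and contained in CANNTG, was found at 0 pro-survival and 3 pro-death starts, the first of Bad and the second and the third of Bbc3, against 20.2% of all promoters. CAGCTG occurred at 1 start, the first of Bcl2l11, against 16.3% of all promoters. The GC box GGGCGG was found at 3 of 6 and 7 of 9 starts against 35.7%, with 7 matches each at Bcl2 and at the third start of Bbc3. By gene, it was missing only from Bcl2l1, at each of its starts, and from Bak1. The STAT form TTCNNNGAA was at none of the 15 starts (8.30% of all promoters), and the ETS core GGAA at 14 of 15 (96.0%). TGANTCA, searched as a loose form of the AP-1 site, was found only at Bcl2a1b (7.81% of all promoters). There it read TGAATCA, whereas the AP-1 site has C or G in the middle, so this match is not taken as an AP-1 site. These letters are matches within the window and do not show binding.

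**Figure D5:**
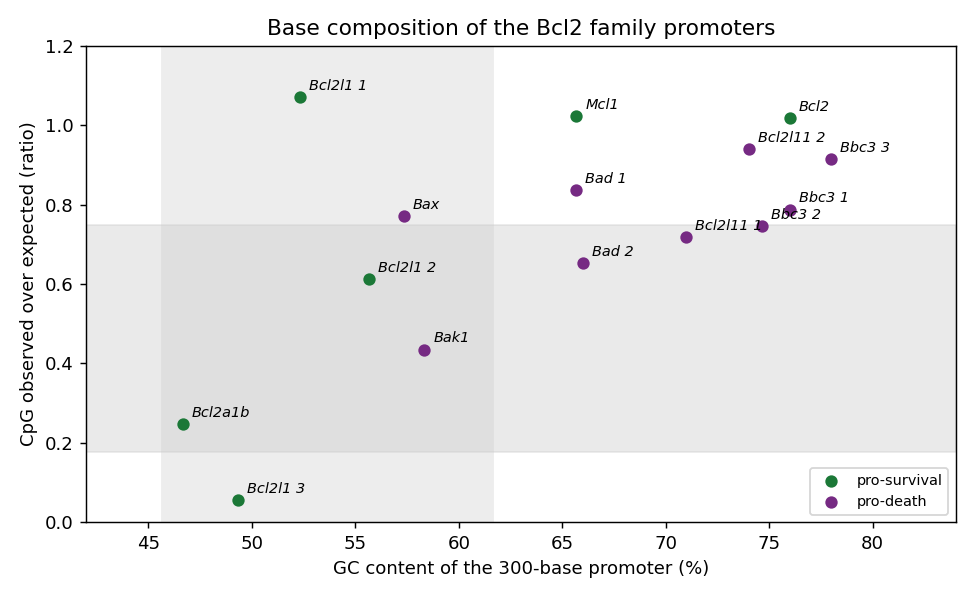
Each point is a 300-base RefSeq promoter of a family gene, by GC content in percent (x axis) and the ratio of observed to expected CpG (y axis), and numbers after a name count the starts of a gene from the 5′ end. Grey bands give the quartiles over all promoters, and Bcl2a1b and the third start of Bcl2l1 lie at 46.7% and 49.3% GC with few CpG, apart from Bcl2 and Mcl1.

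The lists for the rest of the pathway had medians of 2 and 3 regions, beside 2 over all genes with a promoter region. Of 10 other family genes, 8 had a region on the gene, each including its promoter. The median over all 10 was 2 regions. It counts the 2 genes with none, which the value over all genes with a promoter region leaves out. Bid, a BH3-only protein cut by caspase 8, had the most, 6 regions with 4 in introns, and Bmf, another BH3-only gene, had 5. Bcl2l2, the gene of Bcl-w, had 3, and Bcl2l10 and Bcl2a1a had none. All 13 genes of the wider apoptosis list had a promoter region, with a median of 3 regions and a range of 1 to 6. Apaf1, which builds the apoptosome, and Casp8 had 6 each, and the death receptor gene Fas had 5. No gene of these lists reached the 10 regions of Bcl2l1.

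The deposited fold changes and p-values were not read as belonging to these loci. Each region p-value was divided by its number of windows. The result is the p-value of the strongest window if region p-values are that value multiplied by the windows, which is not stated. Along the table this quantity decreased at 0 steps in each of the 6 contrasts. Only regions with a p-value below 1 were used for this, 25375 to 53444 of 65983 depending on the contrast. The table starts with chromosome 1, where Bcl2 lies. In the authors' deposited table all 33 regions of Bcl2, and no region of the other 9 genes, were listed with an adjusted p below 0.05 in the knockout contrasts of Th1, Tcmp, Teff and both 72 h labels together. The share of all regions so listed was 12.7%, 18.7%, 9.52% and 22.9%.

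Where calls ran out within a locus, they did so by the number of windows. Of the 33 Bcl2 regions in the authors' deposited table, 3 were called for WT Teff against Tcmp (2.32% of all regions were), and these were the 3 regions with 2 windows, while the other 30 had 3 to 9. In Id3-KO Teff against Tcmp (44.0% of all regions called) all 33 Bcl2 regions and 3 of 5 Bak1 regions were called. The called Bak1 regions had 3 to 5 windows and the others 8. No change in accessibility at Bcl2 or Bak1 is read from these calls. The loss of Id3 could not be checked from this table either.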

How the data were processed

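ATAC-seq libraries of 18 samples in 6 groups of 3 were processed by the authors. The submitters' processing notes name Trim Galore, BWA, Picard, edgeR and the build GRCm39, with neither versions nor the role of each. The deposited table lists 65983 regions under each of 6 contrasts and, per the file headers, holds region width in bp, the number of windows, a log2 fold change, a p-value and an adjusted p-value for each. The normalization behind the log2 fold changes is not stated. The adjusted p-values were used only to locate the listed calls, at 0.05 and 0.01.

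Distinct regions were taken from 1 contrast, since positions, widths, windows and gene entries were the same in all 6. Gene entries were split with Python 3.11.15 and pandas 2.3.3, and the parsing and the motif search were tested on simulated data. Member and pathway lists were chosen with earlier results of these data known, and all 10 members are named, with those other listed genes that had the most regions or none. Promoters of the Bcl2a1 copies were aligned locally with Biopython 1.88. Falls of the region p-value divided by its number of windows were counted beyond a relative tolerance of 1e-09. Depth and the spread between samples are unknown from the table, so no interval is given for the values. The planned search of motifs in the regions themselves was replaced by RefSeq promoters of GRCm38.p6. Counts over the lists of B cell and erythroid markers are not reported here.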

Additional observations from a re-analysis of the deposited data

How the results depend on the processing

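Of 38 alternative values, 31 stayed near the reported value and 7 did not. The limit was 1.5 times for a count or width, and the 95% Wilson interval for a share. That interval served only as a tolerance, because regions of a gene are not independent. Some of the 31 say little about stability. Every member region had 2 or more windows, so requiring 2 windows removed none. The window medians repeat the widths at these loci, and the call counts are not read as belonging to them. The median number of regions per pro-survival gene, 8 as reported, was 3 with all family genes and 3.5 without intronic regions. Per pro-death gene, 2.5 as reported, it was 1 when only overlapping regions counted and 0.5 when regions overlapping another gene were left out. The pro-survival median was the higher under each of the 6 alternatives run for it, of which the setting on windows changed nothing by construction. Leaving out the gene with the most regions removed Bcl2 from the pro-survival and Bak1 from the pro-death genes, and gave 6 and 2. The promoter share at pro-death genes rose from 50.0% to 80.0% when flanking regions were left out. The log2 ratio of E-boxes at pro-survival promoters to all promoters went from -0.12 by share of promoters to -1.06 by matches per kb. At an adjusted p of 0.01 the calls for WT Teff against Tcmp at these loci went from 3 to 0 in the authors' deposited table. The cause of these moves was not tested beyond what each setting removes by construction. Leaving out intronic or shared regions, and leaving out the gene with the most regions for the promoter share, were chosen after seeing the data. Region number per 10 kb of gene was not run. No paired analysis was possible because values of single samples were not analysed here, and for the same reason no replicate could be left out.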
